A study of Mus musculus with 32 samples.

Results

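CD8 T cells taken at week 4 of tumor development were compared with CD8 T cells taken at week 3, across all genes, in a mouse study of MMTV-PyMT breast tumors. The comparison used 3 libraries of week 4 (replicates 2, 3 and 4) and 3 of week 3 (replicates 1, 3 and 4). These are 6 of the 32 libraries of the series, chosen by the cell type, week and replicate number in their labels. A further 3 CD8 libraries of week 2 entered the fit to help estimate the spread, and the 8 tumor cell libraries of weeks 4 and 3 (4 each) served to mark transcripts that could have come along from tumor cells. In the MMTV-PyMT model the mouse mammary tumor virus promoter drives the polyoma middle T oncogene in mammary epithelium. The series calls week 3 the middle and week 4 the late stage of tumor growth. Tissue is labelled as tumor for both groups, and both come from the same model without any treatment named. Mouse age, strain and sex, the way the CD8 T cells were isolated, and whether a library is 1 animal or a pool are not given in the sources used here. The p-values therefore measure the spread between these libraries, which may be technical in part.

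CD8 T cells recognise peptides on MHC class I molecules through the T cell receptor and can kill the presenting cell with granzymes, perforin and death ligands. In tumors, where antigen persists, many of them gain inhibitory receptors such as PD-1, while a smaller pool with the transcription factor TCF1 keeps the features of memory cells and can renew itself. Type I and type II interferons bind receptors on the same cells and, through transcription factors that include STAT2 and IRF9, switch on a large set of antiviral genes.

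Expression was given as TPM, a unit that corrects reads for the length of a gene and fixes the sum of each library. Reads recovered from the steps between TPM values came to 20.3 to 31.2 megareads per library, in genes holding 82.4% to 85.5% of the TPM. In each library 12531 to 13455 genes reached 1 TPM. The label held against its markers. Cd8a, a chain of the CD8 coreceptor, was at 1173, 1128 and 996 TPM at week 4 and 835, 715 and 673 TPM at week 3. Cd8b1, its partner chain, was at 741, 577 and 679 TPM at week 4 and 693, 712 and 719 TPM at week 3. Cd3e of the T cell receptor complex was at 469, 718 and 642 TPM at week 4 and 782, 731 and 562 TPM at week 3. The helper T cell marker Cd4 was at 5.57, 0.584 and 4.64 TPM at week 4 and 1.96, 7.59 and 5.24 TPM at week 3. Transcripts known from other cells were present too. Epcam, an epithelial adhesion protein, was at 38.5, 37.9 and 29.5 TPM at week 4 and 36.2, 49.1 and 27.6 TPM at week 3, where tumor cell libraries averaged 529 ± 43.5 and 458 ± 57.7 TPM (SD, n = 4 each). Some stood higher. Lcn2 of the milk list had 458, 261 and 260 TPM at week 4 and 241, 365 and 179 TPM at week 3. Lyz2 of the macrophage list had 213, 174 and 131 TPM at week 4 and 87.0, 337 and 299 TPM at week 3. Cd74 of the dendritic cell list had 290, 161 and 229 TPM at week 4 and 225, 951 and 558 TPM at week 3. On the first principal component of the 9 CD8 libraries, which held 41.8% of the variance, the week 4 libraries stood at 58.1, 33.7 and 21.3 and the week 3 libraries at 0.294, -6.85 and -9.83, so week 4 replicate 2 lay farthest out.

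Of 13350 genes tested, 356 passed the threshold (2.67%; adjusted p under 0.05, limma with Benjamini-Hochberg adjustment): 184 rose (1.38%) and 172 fell (1.29%) at week 4. Among those that rose were inhibitory receptors led by Pdcd1, lectin-like receptors of the natural killer gene complex and the cytokine genes Csf2 and Lta. Among those that fell were interferon-induced genes, 30 of 49 on the list examined. At least 2-fold changes were seen in 115 of the genes that rose and 79 of those that fell. Each log2 fold change is the week 4 mean of log2(TPM + 1) less the week 3 mean, a scale that understates the change of low genes. The median of all genes was -0.13 and moved to -0.01 when libraries were rescaled by the median of ratios. That rescaling gave 324 higher and 170 lower genes, and quantile normalization gave 373 and 232, so the split between both directions depends on the scaling. Without week 3 replicate 3 only 46 genes passed. There were 97 without week 4 replicate 3, and without week 4 replicate 2 or week 3 replicate 4 there were 111 each. Without week 3 replicate 1 there were 197, and without week 4 replicate 4 there were 676. All 356 genes kept their direction in each of these fits, but they were picked for a clear difference in the same libraries, so this adds little. When each of the 9 CD8 libraries was left out in turn, 41 of the 356 genes passed in all 9 fits and 4 in none. For named genes, the libraries without which the call was lost are given with the highest adjusted p over those fits. In bulk RNA, fewer cells of a kind and less RNA per cell cannot be told apart.

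A gene was marked as possible carry-over when its mean log2(TPM + 1) in the tumor libraries of weeks 4 and 3 was above the higher of its weekly means in CD8 T cells. The tables were scaled separately, so this sets levels side by side without a test. The mark fell on 5844 of the 13350 tested genes (43.8%). It fell on 22 of the 184 genes that rose (11.96%) and on 44 of the 172 that fell (25.6%). Only 2 of the genes that passed, both lower, exceeded the CD8 level by 3 log2 units or more, against 721 of all genes tested.

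**Figure D1:**
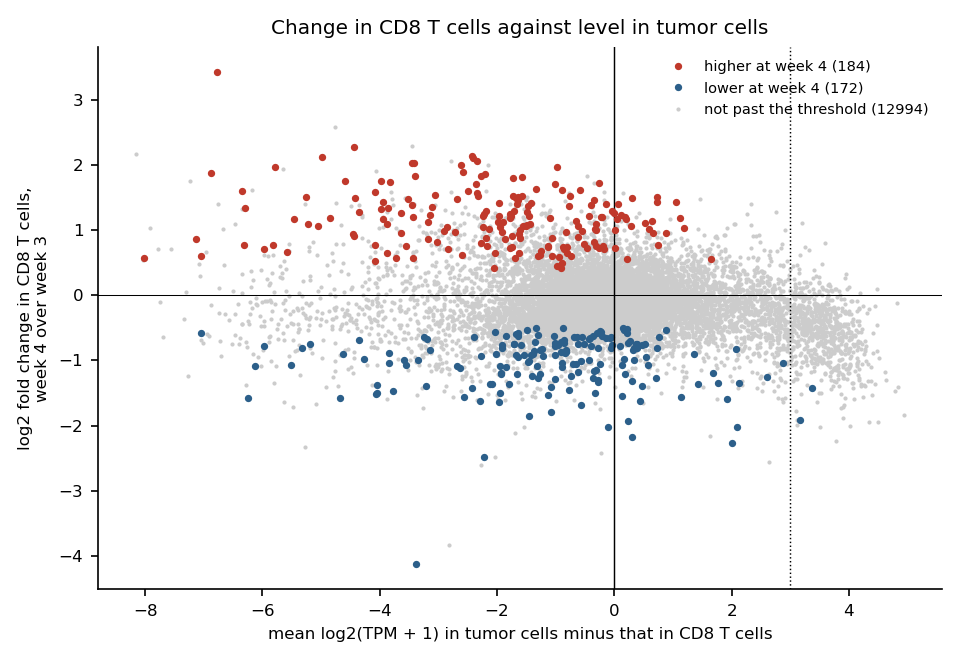
Log2 fold change in CD8 T cells (week 4 over week 3, vertical) against the mean log2(TPM + 1) in tumor cells minus the higher of the weekly means in CD8 T cells (horizontal), 1 point per tested gene. Genes right of the solid line at 0 are marked as possible carry-over, which holds for 22 of the 184 genes higher at week 4 and 44 of the 172 lower; the dotted line is the margin of 3 log2 units.

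Several inhibitory receptors, PD-1 in front, rose at week 4. Of 16 listed receptor genes tested, 6 rose and 0 fell (1.38% and 1.29% of all genes). For 12 of the 16 the libraries of the 2 weeks did not overlap in the upward direction (10.4% of all genes tested did so). The median log2 fold change of the 16 was 1.07, against -0.13 over all genes. Pdcd1 (chr1:94038305-94052553, GRCm38, minus strand, protein coding), which encodes PD-1, had 611, 542 and 457 TPM at week 4, against 171, 164 and 106 TPM at week 3 (log2 fold change 1.88, SE 0.28, adjusted p = 0.0125). The lowest week 4 library was thus far above the highest week 3 library. Tigit, a receptor for the ligand CD155, had 287, 326 and 258 TPM at week 4 and 139.7, 117 and 89.4 TPM at week 3 (log2 fold change 1.34, SE 0.18, adjusted p = 0.0097). Cd200r1, the receptor of CD200, had 60.05, 53.4 and 40.9 TPM at week 4 and 18.9, 12.5 and 12.4 TPM at week 3 (log2 fold change 1.76, SE 0.24, adjusted p = 0.00981). No library of week 4 overlapped one of week 3 for either gene. Klrc1, which encodes NKG2A, a receptor for the class Ib molecule Qa-1, had 264, 165 and 143 TPM at week 4 and 64.2, 57.2 and 57.98 TPM at week 3 (log2 fold change 1.61, SE 0.29, adjusted p = 0.025), with replicate 2 of week 4 the highest. Cd101, a surface immunoglobulin-family protein, rose with a log2 fold change of 1.32 (adjusted p = 0.0389), and Cd38, an ectoenzyme that consumes NAD, with 1.26 (adjusted p = 0.0386).

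Several classical checkpoint receptors did not pass. Ctla4 had 285, 279 and 315 TPM at week 4 and 221, 162 and 191 TPM at week 3, without overlap but with an adjusted p of 0.104. Lag3, which binds MHC class II, had 71.9, 69.7 and 41.9 TPM at week 4 and 40.4, 40.99 and 17.3 TPM at week 3 (adjusted p = 0.16). Havcr2, which encodes TIM-3, was at 23.4, 13.1 and 12.1 TPM at week 4 and 12.1, 21.1 and 16.7 TPM at week 3, and its weeks overlapped (log2 fold change -0.06, SE 0.35). Cd244 had 40.7, 55.95 and 25.2 TPM at week 4 and 22.3, 12.5 and 9.38 TPM at week 3. Cd160 had 34.9, 30.2 and 19.7 TPM at week 4 and 16.9, 10.1 and 8.46 TPM at week 3, and neither gene passed (adjusted p = 0.0919 and 0.0734). At the other end Vsir, which encodes VISTA, had 32.5, 53.3 and 49.8 TPM at week 4 and 76.4, 77.4 and 65.6 TPM at week 3, all week 4 libraries the lower (log2 fold change -0.71, adjusted p = 0.102). None of the 16 genes carried the carry-over mark. Over weeks 2, 3 and 4 Pdcd1 averaged 113, 147 and 537 TPM and Tigit 94.2, 115 and 290.4 TPM (n = 3 each). The count of 6 was 1 without week 3 replicate 3, 2 without week 4 replicate 2 or replicate 3, and 3 without week 3 replicate 4. Tigit passed in every fit that left out 1 library, whereas Pdcd1 missed the threshold without week 4 replicate 2, week 4 replicate 3 or week 3 replicate 3, at adjusted p-values of at most 0.0531. Cd200r1 missed it without week 3 replicate 3 (0.0531), and Klrc1 without week 4 replicate 2 or 3 or any week 3 library (up to 0.106). Cd101 and Cd38 missed it without any of week 4 replicates 2 and 3 and week 3 replicates 3 and 4, and also Cd101 without week 2 replicate 1 or 2 and Cd38 without week 3 replicate 1 or week 2 replicate 2 (up to 0.153 and 0.139). B cell markers also differed between the weeks, and with their sum as a covariate 0 of the 16 genes passed, at a median of 0.78. Here and below, that fit cannot fully separate the B cell sum from week, since the sum differs between the weeks.

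**Figure D2:**
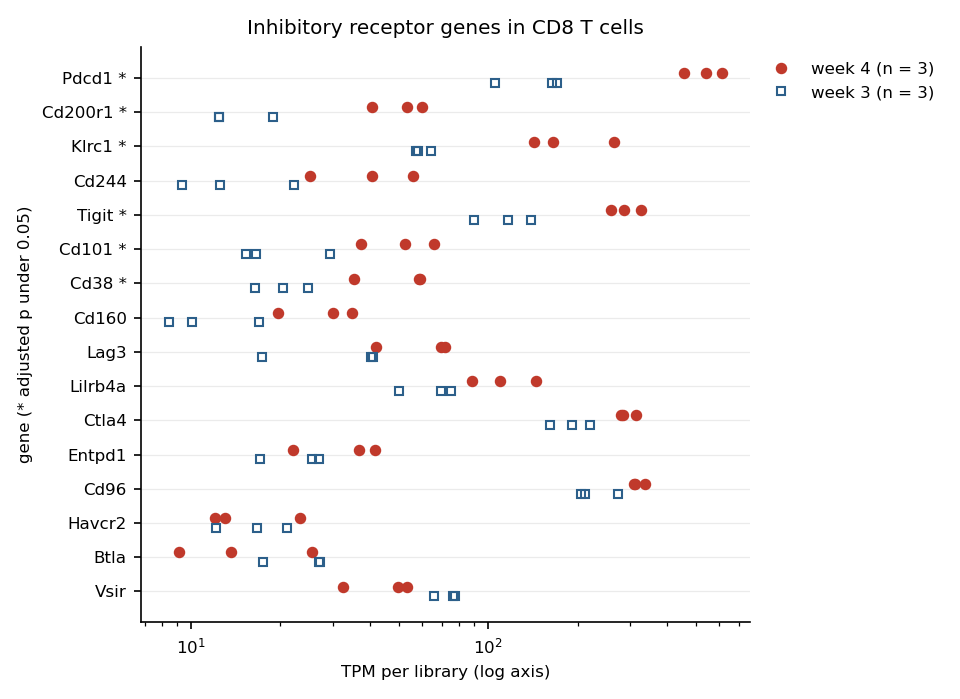
TPM of the 16 inhibitory receptor genes (vertical, ordered by log2 fold change) in each CD8 T cell library on a log axis, with filled circles for week 4 and open squares for week 3 (n = 3 each); a star marks an adjusted p under 0.05. Pdcd1, Tigit and Cd200r1 stand clear of week 3 in all 3 week 4 libraries, and the weeks overlap for Havcr2.

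Some lectin-like receptors known from natural killer cells rose as well. Of 21 tested genes of this list, 3 rose (Klri2, Klrc1 and Klrd1; 1.38% of all genes rose) and 0 fell. For 11 the weeks did not overlap in the upward direction (10.4% of all genes), and the median log2 fold change was 0.68. With the B cell sum as a covariate 0 of the 21 passed, at a median of 0.62. Klrd1, which encodes CD94, the partner of NKG2A, had 479, 453 and 365 TPM at week 4 and 261, 239 and 208 TPM at week 3 (log2 fold change 0.87, SE 0.16, adjusted p = 0.0297). Klri2, an orphan lectin-like receptor, had 46.6, 38.8 and 31.1 TPM at week 4 and 6.91, 11.6 and 6.43 TPM at week 3 (log2 fold change 2.12, SE 0.32, adjusted p = 0.0134). The largest rise of all tested genes was that of Gm156, which the naming rule passes over as a predicted gene and which was chosen after its values were seen. It had 231, 148 and 134 TPM at week 4 and 14.04, 18.3 and 11.6 TPM at week 3 (log2 fold change 3.44, SE 0.48, adjusted p = 0.0101), so that the lowest week 4 library was several times the highest of week 3. Its call held in all 9 fits without 1 library. Klri2 lost its call without week 4 replicate 2 or 3 or week 3 replicate 4 (up to 0.0619), and Klrd1 without week 4 replicate 2 or 3 or any week 3 library (up to 0.116). RefSeq gives Gm156 the symbol Klrh1 and places it at chr6:129766568-129784270 (GRCm38), on chromosome 6 between Klri2 and Klra17.

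Klra5, a receptor of the Ly49 family, had 175, 318 and 152 TPM at week 4 and 121, 43.6 and 39.9 TPM at week 3. Klrk1, which encodes the activating receptor NKG2D, had 112, 88.5 and 71.1 TPM at week 4 and 62.3, 54.1 and 49.9 TPM at week 3. Neither passed (adjusted p = 0.0994 and 0.0921). Members of the Klra and Klrc families are near-identical copies between which read counting could split reads, so their single values are uncertain. In the stretch of chromosome 6 that runs from Tulp3 to Ybx3 and holds the natural killer gene complex, 6 of 38 tested genes rose and 2 fell, beside 1.38% and 1.29% of all genes. For 16 the weeks did not overlap in the upward direction (10.4% of all genes), and the median log2 fold change was 0.60. The stretch was chosen after Gm156 had been seen. The 2 that fell were Tulp3, outside the receptor cluster, and Clec2d, a ligand of a natural killer receptor (log2 fold change -0.76, adjusted p = 0.0283). Clec2d lost its call without week 4 replicate 2 or any week 3 library (up to 0.108), and Tulp3 without those, week 4 replicate 3 or week 2 replicate 1 (up to 0.152). The natural killer cell marker list summed to 2297, 2704 and 1414 TPM at week 4 and 1451, 1044 and 1041 TPM at week 3. Week 4 replicate 4 was below the highest week 3 library. Nkg7 made up 1519, 1225 and 927 TPM of these sums at week 4 and 908, 679 and 642 TPM at week 3. Gzma made up 192, 730 and 133 TPM at week 4 and 202, 86.6 and 128 TPM at week 3. CD8 T cells can express both, so the sum is not specific to natural killer cells. Of the 8 tested genes of the list, 0 passed with limma (1 higher and 1 lower at an unadjusted p under 0.05, and 0 with voom on recovered reads). Ncr1, an activating receptor of natural killer cells, was at 8.99, 11.2 and 5.04 TPM at week 4 and 11.8, 7.46 and 9.48 TPM at week 3.

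Most of the interferon-induced genes examined fell. Of 49 tested genes on the list 30 fell and 0 rose (1.29% of all genes fell), all week 4 libraries were below all week 3 libraries for 45 of them (22.4% of all genes), and the median log2 fold change was -1.07. Promoter sequences of genes that fell are shown because many such genes are known to share a DNA element, the interferon-stimulated response element, which is bound by IRF9 with its partners and by other interferon regulatory factors. The motif searched was 2 GAAA tetramers separated by any 2 bases, on both strands and with overlapping matches allowed, in the 250 bases before the start of each RefSeq gene (GRCm38). Each line gives 60 bases of the gene's own strand, 5′ to 3′, with the match in capitals (a match on the other strand appears as a pair of TTTC tetramers).
Tgtp1 (chr11:48992289-48992348, minus strand): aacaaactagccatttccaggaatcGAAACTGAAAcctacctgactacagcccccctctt
Tgtp2 (chr11:49064248-49064307, minus strand): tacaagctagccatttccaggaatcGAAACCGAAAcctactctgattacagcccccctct
Irgm2 (chr11:58214888-58214947, plus strand): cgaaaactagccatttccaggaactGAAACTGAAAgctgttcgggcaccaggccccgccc
Igtp (chr11:58199496-58199555, plus strand): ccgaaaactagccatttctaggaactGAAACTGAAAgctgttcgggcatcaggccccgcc
Irgm1 (chr11:48871421-48871480, minus strand): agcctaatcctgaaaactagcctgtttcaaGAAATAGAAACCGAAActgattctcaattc
Gbp2 (chr3:142620579-142620638, plus strand): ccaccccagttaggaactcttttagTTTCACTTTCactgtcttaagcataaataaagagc
Gbp3 (chr3:142559980-142560039, plus strand): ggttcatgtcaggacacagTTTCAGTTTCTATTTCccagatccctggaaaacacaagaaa
Gbp5 (chr3:142496744-142496803, plus strand): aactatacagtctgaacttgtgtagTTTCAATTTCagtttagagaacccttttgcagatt
Ifit1bl1 (chr19:34602038-34602097, minus strand): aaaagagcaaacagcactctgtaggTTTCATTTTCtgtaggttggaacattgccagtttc
Ifit3b (chr19:34607778-34607837, plus strand): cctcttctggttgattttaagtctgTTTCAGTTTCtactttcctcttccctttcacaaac

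The motif stood in the windows of 14 of the 20 list members that fell and have a promoter in the RefSeq table (70.0%), and in 21 of 36 when all tested members are counted (58.3%). It stood in 23 of 118 of all genes that fell (19.5%), in 2 of 147 of those that rose (1.36%) and in 323 of 9749 tested genes (3.31%). The 23 include the 14 list members that fell. A second motif, TTCNNNGAA, the form bound by STAT dimers, was found in 30.0% of the list members that fell, 30.6% of all tested members, 11.9% of all genes that fell, 8.84% of those that rose and 7.34% of tested genes. A match in the Irgm1 or Gbp3 window overlaps a second match of the same motif. Both motifs were chosen after the values were seen, and a match is a run of letters that was not shown to be bound.

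The immunity-related GTPases, which attack the vacuoles of intracellular parasites, fell in 6 of 6 tested genes, with a median of -1.65. Tgtp1 had 18.2, 38.3 and 25.3 TPM at week 4, against 100.1, 113 and 113 TPM at week 3 (log2 fold change -2.02, SE 0.22, adjusted p = 0.00513). Igtp had 122, 169 and 145 TPM at week 4, against 322, 393 and 383 TPM at week 3 (log2 fold change -1.33, SE 0.13, adjusted p = 0.00513). Irgm1 had 54.7, 61.6 and 54.5 TPM at week 4, against 139.6, 148 and 129 TPM at week 3 (log2 fold change -1.27, SE 0.10, adjusted p = 0.00509). Replicates within a week differed little beside the gap between weeks. The guanylate-binding proteins, GTPases of the same defence, fell in 8 of 11 tested genes with a median of -1.07. Gbp4 had 104, 129 and 99.8 TPM at week 4 and 201, 258 and 252 TPM at week 3 (log2 fold change -1.09, SE 0.13, adjusted p = 0.00841). Gbp2 had 52.4, 61.3 and 35.7 TPM at week 4 and 117, 191 and 154 TPM at week 3 (log2 fold change -1.62, SE 0.22, adjusted p = 0.0097). Both families hold near-identical genes such as Tgtp1 and Tgtp2, between which reads may have been split, so single members are uncertain. The families were grouped after the values were seen, and the counts were also 6 and 8 under both rescalings. With the B cell sum as a covariate they were 1 and 0, at medians of -1.53 and -1.06. All 5 genes given here passed in all 9 fits without 1 library, as did Tgtp2 and Gbp5. Irgm2, Iigp1, Gbp3, Gbp6, Gbp7, Gbp9 and Gbp10 each lost their call in at least 1 of these fits (up to 0.0848).

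Signalling components of the pathway were among those that fell. Irf7, which amplifies type I interferon production, had 56.2, 58.02 and 57.2 TPM at week 4, against 121, 129.5 and 102 TPM at week 3 (log2 fold change -1.02, SE 0.11, adjusted p = 0.00513). Irf9, the DNA-binding partner of STAT2, had 54.1, 55.9 and 49.6 TPM at week 4, against 99.6, 99.1 and 94.9 TPM at week 3 (log2 fold change -0.87, SE 0.10, adjusted p = 0.00719). For neither gene did a week 4 library reach the lowest week 3 library. Stat2 fell by 0.75 on the log2 scale (adjusted p = 0.0413). Zbp1, a sensor of Z-form nucleic acid, had 57.1, 56.5 and 47.4 TPM at week 4 and 115, 124 and 109 TPM at week 3 (log2 fold change -1.10, SE 0.11, adjusted p = 0.00513). The brake on the type I receptor, Usp18, fell to 11.8, 6.04 and 6.87 TPM at week 4, against 24.3, 23.6 and 20.3 TPM at week 3 (log2 fold change -1.41, SE 0.22, adjusted p = 0.0143). Irf7, Irf9 and Zbp1 passed in all 9 fits without 1 library. Usp18 lost its call without week 4 replicate 3 or week 3 replicate 3 (up to 0.0741), and Stat2 passed in 1 of the 9 fits, the one without week 2 replicate 3 (up to 0.164 in the others).

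Antiviral effectors were split by the test. Oas2, a maker of the 2-5A messenger, had 1.82, 2.17 and 1.21 TPM at week 4 and 10.2, 9.62 and 8.28 TPM at week 3 (log2 fold change -1.94, SE 0.20, adjusted p = 0.00513). Mx1, a GTPase against viral nucleocapsids, had 13.7, 6.895 and 7.66 TPM at week 4 and 22.4, 23.7 and 20.7 TPM at week 3 (log2 fold change -1.21, SE 0.23, adjusted p = 0.0292). Oas2 passed in all 9 fits without 1 library, and Mx1 lost its call without week 4 replicate 3 or any week 3 library (up to 0.124). Ifit1 had 7.04, 4.24 and 7.53 TPM at week 4 and 11.7, 13.8 and 10.4 TPM at week 3. Ifit3 had 8.61, 3.78 and 6.73 TPM at week 4 and 16.5, 16 and 11.98 TPM at week 3, and both were without overlap but short of the threshold (adjusted p = 0.0579 and 0.0654). Bst2, the tether that holds budding virions, was at 221, 96.3 and 112 TPM at week 4 and 151, 174 and 158 TPM at week 3 with overlapping weeks (log2 fold change -0.26, SE 0.27). Isg20 was the one member above 0, at 51.5, 41.96 and 29.2 TPM at week 4 and 30.4, 27.5 and 22.8 TPM at week 3 (log2 fold change 0.56, adjusted p = 0.18). Over weeks 2, 3 and 4 Irf7 averaged 106, 117 and 57.1 TPM (n = 3 each).

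Of the 30 genes that fell, 11 carried the carry-over mark, and the part of tumor transcripts in the fall was not tested beyond the values given here. In the tumor libraries 48 of the 49 genes had a lower mean at week 4 than at week 3 (53.8% of all tested genes), with a median log2 ratio of means of -1.40. Oas2 averaged 7.21 ± 2.52 TPM in tumor cells at week 4 and 18.1 ± 4.51 TPM at week 3 (SD, n = 4 each), and Iigp1 averaged 210.2 ± 83.03 and 751 ± 257 TPM. In CD8 T cells Iigp1 had 27.02, 22.5 and 10.01 TPM at week 4 and 92.2, 114 and 74.8 TPM at week 3 (log2 fold change -2.27, SE 0.37, adjusted p = 0.0178). Its call was lost without week 4 replicate 3 or any week 3 library (up to 0.0848). For the other 19 genes that fell, Irf7 and Zbp1 among them, the tumor level pooled over both weeks did not exceed the higher of the weekly CD8 levels. At week 3 alone, 10 of these 19 had a mean TPM in tumor cells above that in CD8 T cells. Tgtp1 was one of them, with a tumor mean of 54.7 ± 24.4 TPM at week 4 and 222 ± 111 TPM at week 3. The count of 30 was 14 without week 3 replicate 3 and 19 without week 4 replicate 3, and lay between 22 and 31 without any other library. B cell transcripts also differed, as described with the cell type markers. With their sum as a covariate, an alternative chosen after the data were seen, 4 of the 49 genes passed as lower while the median stayed at -1.07.

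**Figure D3:**
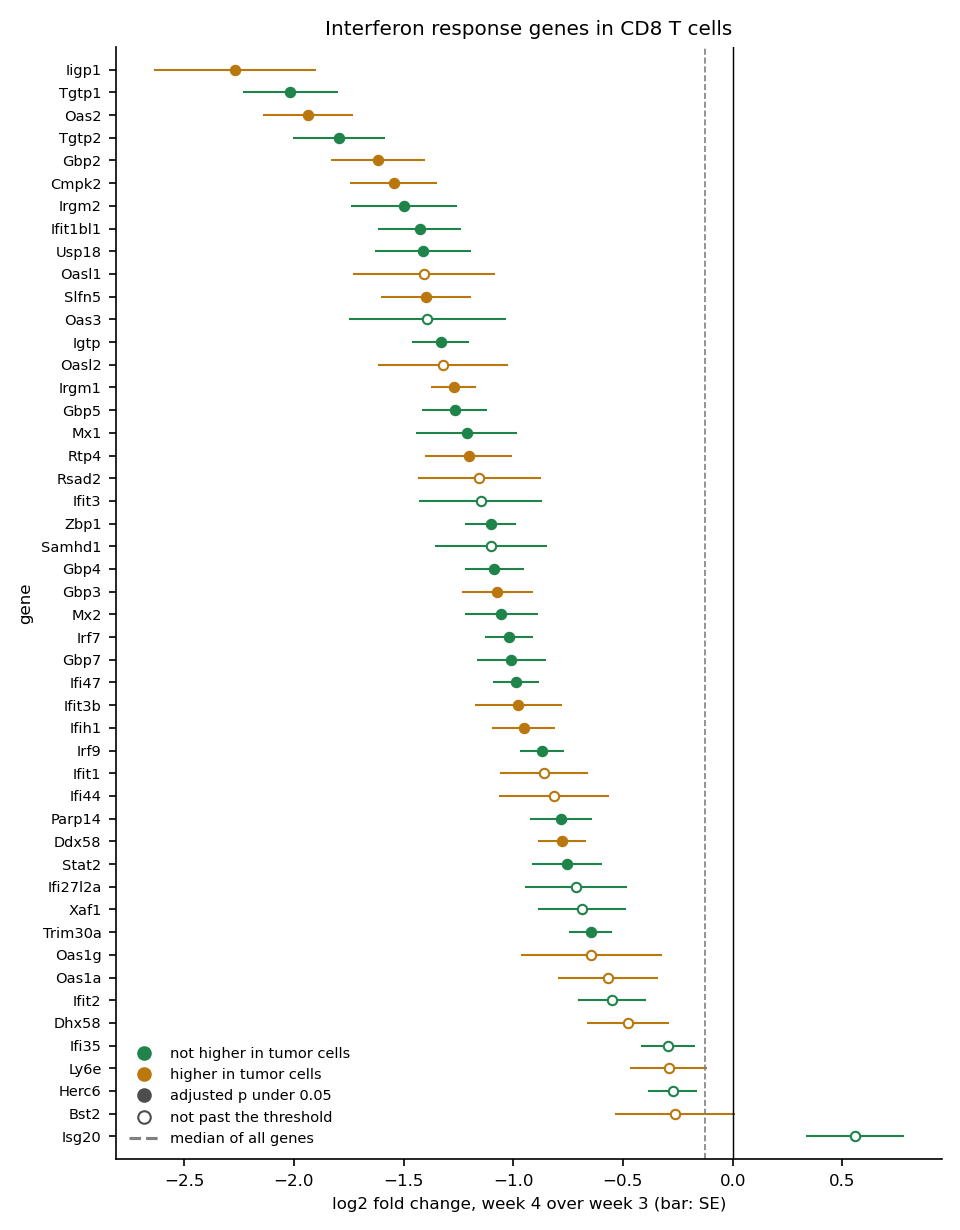
Log2 fold change (week 4 over week 3) of 48 of the 49 interferon response genes tested in CD8 T cells, with the standard error of the limma fit as bars; filled points have an adjusted p under 0.05 and orange points were at a higher level in tumor cells, pooled over both weeks. All of them but Isg20 lie below 0.

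Genes of naive, memory and stem-like CD8 T cells mostly had lower means at week 4, but the week 4 libraries were widely spread and few genes passed. Of 24 tested genes, 2 fell (Igfbp4 and Cd27) and 1 rose (Bcl2), beside 1.29% and 1.38% of all genes. For 16 the week 4 libraries all lay below those of week 3 (22.4% of all genes), 23 had a log2 fold change below 0, and the median was -0.89. Tcf7 (chr11:52252371-52283014, GRCm38, minus strand), which encodes TCF1, had 133, 436 and 572 TPM at week 4, against 934, 858 and 768 TPM at week 3 (log2 fold change -1.40, SE 0.48, adjusted p = 0.137), and did not pass. S1pr1, which lets T cells leave tissue, had 39.6, 175 and 297 TPM at week 4 and 368, 429 and 479 TPM at week 3 (adjusted p = 0.135). Lef1, the relative of TCF1, had 20.9, 75.1 and 160.1 TPM at week 4 and 187, 221 and 203 TPM at week 3 (adjusted p = 0.139). In all 3 genes week 4 replicate 2 was the lowest library by a wide margin, and no libraries of the 2 weeks overlapped.

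Klf2, a transcription factor of quiescent T cells, had 105, 356 and 486 TPM at week 4 and 688, 663 and 713 TPM at week 3 (adjusted p = 0.132). Ccr7, the chemokine receptor for entry into lymph nodes, overlapped between the weeks with 309.6, 638 and 1047 TPM at week 4 and 920.3, 847 and 1095 TPM at week 3, as did Il7r, the interleukin 7 receptor, with 115, 289 and 585 TPM at week 4 and 348, 349 and 407 TPM at week 3. Cd27, a costimulatory receptor of naive and memory cells, fell more evenly, to 183, 216 and 246 TPM at week 4, against 371, 359 and 370.5 TPM at week 3 (log2 fold change -0.78, SE 0.11, adjusted p = 0.0115). Bcl2, which protects cells from apoptosis, had 262, 264 and 219 TPM at week 4 and 149, 142 and 147 TPM at week 3 (log2 fold change 0.76, SE 0.11, adjusted p = 0.0132). Igfbp4, a binding protein of insulin-like growth factors, had 22.4, 53.5 and 53.5 TPM at week 4 and 138, 230.3 and 146 TPM at week 3 (log2 fold change -2.03, SE 0.34, adjusted p = 0.0205). It carries the carry-over mark, since tumor cells averaged 675 ± 37.8 TPM at week 4 and 761 ± 110.2 TPM at week 3 (SD, n = 4 each). Without week 4 replicate 4 the number of members that fell was 13, without week 3 replicate 3 it was 0, without week 3 replicate 4 it was 1, and without any other library it was 2. Cd27 lost its call without week 3 replicate 3 (0.0577), Igfbp4 without week 3 replicate 3 or 4 (up to 0.0876), and Bcl2 without either of these or week 4 replicate 3 (up to 0.0721). With the B cell sum as a covariate none of the 24 genes passed, at a median of -0.75.

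**Figure D4:**
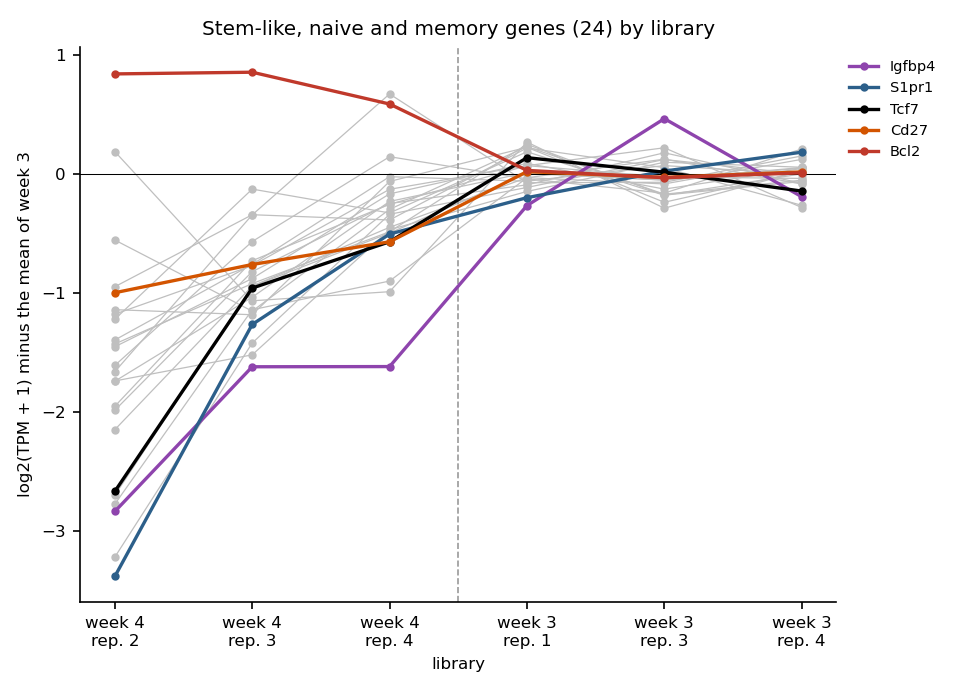
Log2(TPM + 1) of the 24 stem-like, naive and memory genes in each CD8 T cell library relative to the gene's mean at week 3, with lines joining the values of 1 gene (libraries of a week have no order). Week 4 replicate 2 has the lowest values for Tcf7, S1pr1 and Igfbp4, and Bcl2 lies above 0 in all 3 week 4 libraries.

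Cytokine genes were higher in part. Of 16 tested cytokine and chemokine genes 2 rose and 0 fell (1.38% and 1.29% of all genes), with a median of 0.81. Csf2, which encodes GM-CSF, had 28.6, 19.4 and 26.7 TPM at week 4 and 6.44, 5.901 and 3.39 TPM at week 3 (log2 fold change 2.07, SE 0.37, adjusted p = 0.0245). Lta, which encodes lymphotoxin alpha, had 103, 82.7 and 56.1 TPM at week 4 and 32.4, 25.2 and 23.2 TPM at week 3 (log2 fold change 1.52, SE 0.24, adjusted p = 0.0143). Csf2 lost its call without any of week 4 replicates 2 and 3 and week 3 replicates 3 and 4 (up to 0.0874), and Lta without week 4 replicate 3 or week 3 replicate 3 or 4 (up to 0.0739). The differences of 3 further genes came with larger standard errors. Xcl1, the chemokine for cross-presenting dendritic cells, had 2914, 2364 and 1709.6 TPM at week 4 and 792, 394 and 404 TPM at week 3 (log2 fold change 2.18, SE 0.61, adjusted p = 0.0897). Ifng, which encodes interferon gamma, had 389, 197 and 227 TPM at week 4 and 132, 94.9 and 74.2 TPM at week 3 (log2 fold change 1.40, SE 0.39, adjusted p = 0.0887). Il17a, the cytokine of type 17 T cells, had 23, 47.9 and 32.1 TPM at week 4 and 7.89, 3.08 and 3.93 TPM at week 3 (log2 fold change 2.59, SE 0.59, adjusted p = 0.0565). None of these 3 passed, though their libraries did not overlap. Tnf was at 78.5, 55.5 and 73.5 TPM at week 4 and 46.7, 42.1 and 33.01 TPM at week 3 (adjusted p = 0.0854) and carries the carry-over mark, with 381 ± 61.3 and 153 ± 45.7 TPM in tumor cells.

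Killing genes were mostly short of the threshold. Of 18 tested, 2 rose and 0 fell (1.38% and 1.29% of all genes). Tnfsf10, which encodes the death ligand TRAIL, had 129, 136 and 83.95 TPM at week 4 and 57.2, 41.7 and 35.8 TPM at week 3 (log2 fold change 1.35, SE 0.24, adjusted p = 0.0238). Serpinb6b, a serine protease inhibitor, had 183, 182 and 138 TPM at week 4 and 91.01, 64.5 and 76.9 TPM at week 3 (log2 fold change 1.10, SE 0.20, adjusted p = 0.0252). Both lost their calls without any of week 4 replicates 2 and 3 and week 3 replicates 3 and 4 (up to 0.106 and 0.114). Gzmb, the main granzyme of CD8 T cells, had 1118, 1999.8 and 832 TPM at week 4 and 1034, 459.9 and 454 TPM at week 3, with week 4 replicate 3 far above the others and the weeks overlapping (adjusted p = 0.251). Prf1, which encodes perforin, had 28.5, 37.3 and 44.4 TPM at week 4 and 54.3, 65.7 and 57.1 TPM at week 3, all week 4 libraries the lower (log2 fold change -0.69, adjusted p = 0.124). Fasl, the other death ligand, had 205, 169.6 and 104 TPM at week 4 and 70.2, 54.3 and 58.5 TPM at week 3 (adjusted p = 0.0828).

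A few of the genes tied to exhaustion and effector fate rose. Of 15 exhaustion factors 2 rose and 0 fell (1.38% and 1.29% of all genes). Their median log2 fold change was 0.21, against -0.13 over all genes. For 4 the weeks did not overlap in the upward direction and for 1 in the downward direction (10.4% and 22.4% of all genes). Nr4a2, an orphan nuclear receptor induced by T cell receptor signals, had 219, 225 and 233 TPM at week 4 and 118, 102 and 72.3 TPM at week 3 (log2 fold change 1.23, SE 0.16, adjusted p = 0.0097). Nfil3 had 28.4, 28.5 and 29.99 TPM at week 4 and 19.8, 16.1 and 18.2 TPM at week 3 (log2 fold change 0.66, SE 0.13, adjusted p = 0.0333). Tox, the factor most closely tied to exhaustion, had 52.4, 68.7 and 56.3 TPM at week 4 and 41.9, 38.8 and 25.98 TPM at week 3 without overlap (log2 fold change 0.74, SE 0.22, adjusted p = 0.101). Eomes, a T-box factor, ran the other way with 32.95, 16.8 and 19.9 TPM at week 4 and 48.5, 42.3 and 35.5 TPM at week 3 (log2 fold change -0.88, SE 0.24, adjusted p = 0.0844). Of 16 effector differentiation genes 2 rose and 0 fell, beside the same shares of all genes. Their median was 0.36. For 6 the weeks did not overlap in the upward direction and for 1 in the downward direction. Bhlhe40, a transcription factor of cytokine-producing T cells, had 263, 249 and 283 TPM at week 4 and 142, 126 and 83.4 TPM at week 3 (log2 fold change 1.20, SE 0.18, adjusted p = 0.0132). Il2ra, the high-affinity chain of the interleukin 2 receptor, had 66.8, 60.4 and 40.5 TPM at week 4 and 32.2, 28.4 and 25.5 TPM at week 3 (log2 fold change 0.91, SE 0.19, adjusted p = 0.0389). Nr4a2 passed in all 9 fits without 1 library, and Bhlhe40 in all but the one without week 3 replicate 3 (0.0518). Nfil3 lost its call without any 1 library of weeks 4 and 3 (up to 0.146), and Il2ra passed only without week 4 replicate 4 or week 2 replicate 3 (up to 0.146 in the others).

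Among homing and residency genes 2 of 21 rose and 0 fell (1.38% and 1.29% of all genes). Ccr8, a chemokine receptor of tissue T cells, had 103, 109 and 81.99 TPM at week 4, against 31.8, 23.8 and 18.3 TPM at week 3 (log2 fold change 1.97, SE 0.20, adjusted p = 0.00513). Rgs1, which dampens chemokine receptor signalling, had 2268, 2236 and 1935 TPM at week 4 and 1181, 774 and 898 TPM at week 3 (log2 fold change 1.19, SE 0.26, adjusted p = 0.0446). Both rescalings raised this count to 5. Of 14 costimulatory receptors 1 rose and 1, Cd27, fell. The one that rose was Tnfrsf4 (OX40), with 42.4, 35.5 and 36.8 TPM at week 4 and 25.7, 25.2 and 24.7 TPM at week 3 (log2 fold change 0.58, SE 0.10, adjusted p = 0.0252). Il18r1, the interleukin 18 receptor, had 150.1, 158 and 142 TPM at week 4 and 104, 77.9 and 92.4 TPM at week 3 (log2 fold change 0.72, SE 0.13, adjusted p = 0.0256). In the T cell receptor and CD8 list Cd8a rose (log2 fold change 0.57, SE 0.11, adjusted p = 0.0348). Lat, the adaptor that carries the receptor's signal, fell to 309, 399 and 423 TPM at week 4, against 564, 557 and 561 TPM at week 3 (log2 fold change -0.58, SE 0.12, adjusted p = 0.0389). The 22 tested genes of that list had a median of -0.10 (0.03 after median-of-ratios rescaling). The family of TNF ligands, grouped after the values were seen, had 3 of 8 tested genes higher and 0 lower, beside 1.38% and 1.29% of all genes. Tnfsf11, which encodes RANKL, had 23.7, 31.1 and 20.3 TPM at week 4 and 7.703, 8.596 and 8.17 TPM at week 3 (log2 fold change 1.49, SE 0.19, adjusted p = 0.0097). Ccr8 and Tnfsf11 passed in all 9 fits without 1 library. Rgs1 passed only without week 2 replicate 2 or 3, and Lat only without week 4 replicate 4 or week 2 replicate 3 (up to 0.175 and 0.146 in the others). Il18r1 lost its call without any of week 4 replicates 2 and 3 and week 3 replicates 3 and 4 (up to 0.112), Tnfrsf4 without these or week 3 replicate 1 (up to 0.114), and Cd8a without the same 4 libraries or week 2 replicate 1 or 2 (up to 0.146).

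Other genes with large rises, none marked as carry-over, had varied functions. Nrn1, which encodes the surface protein neuritin, had 49.7, 48.1 and 33.6 TPM at week 4, against 10.6, 6.92 and 7.11 TPM at week 3 (log2 fold change 2.29, SE 0.24, adjusted p = 0.00513). Slc15a1, a peptide transporter, had 12.1, 10.4 and 9.92 TPM at week 4 and 2.15, 2.02 and 1.47 TPM at week 3 (log2 fold change 2.04, SE 0.21, adjusted p = 0.00513). Sema6d, a semaphorin, had 131, 149.9 and 125 TPM at week 4 and 47.8, 30.2 and 22.8 TPM at week 3 (log2 fold change 2.04, SE 0.34, adjusted p = 0.0189). All 3 were separated by a gap wider than the range within either week. Adora3, an adenosine receptor, rose with a log2 fold change of 1.90, Smyd1, a methyltransferase known from muscle, with 1.83, and LOC105247125, which the files do not describe further, with 2.11. Bcl2a1c of the A1 family of survival proteins had 6.42, 3.78 and 7.03 TPM at week 4 and 0, 0.676 and 0.971 TPM at week 3 (log2 fold change 2.14). This rested on 45, 24 and 39 reads at week 4 and 0, 4 and 6 reads at week 3. Near-identical copies of the gene make it uncertain. Mir7683 was named by the rule too, but rested on 7, 5 and 8 reads at week 4 and 1, 2 and 0 reads at week 3, and it lost its call whichever 1 of the 9 CD8 libraries was left out. Nrn1, Slc15a1 and LOC105247125 passed in all 9 of those fits. Adora3 lost its call without week 3 replicate 3 (0.0515), Bcl2a1c without week 4 replicate 2 or week 3 replicate 3 (up to 0.0525), and Smyd1 without either of these or week 4 replicate 3 (up to 0.105). Sema6d lost it without any of week 4 replicates 2 and 3 and week 3 replicates 3 and 4 (up to 0.0848).

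Large falls outside the interferon list included lymphocyte genes. Slfn1, a schlafen protein of quiescent T cells, had 52.6, 67.1 and 81.99 TPM at week 4, against 179, 230.0 and 194 TPM at week 3 (log2 fold change -1.58, SE 0.17, adjusted p = 0.00513). Of 7 tested schlafen genes, a family grouped after the values were seen, 4 fell (3 with median-of-ratios rescaling), beside 1.29% of all genes. Slfn5, one of these 4, is also on the interferon list. The PARP family, grouped likewise, had 5 of 12 tested genes lower (3 under both rescalings), beside 1.29% of all genes. Txnip, which binds thioredoxin and limits glucose uptake, had 89.96, 134 and 233 TPM at week 4 and 404, 395 and 465 TPM at week 3 (log2 fold change -1.57, SE 0.29, adjusted p = 0.0289), with week 4 replicate 2 the lowest. Treml2, a receptor of the TREM family, had 7.296, 13.7 and 11.97 TPM at week 4 and 30.2, 38.1 and 33.5 TPM at week 3 (log2 fold change -1.58, SE 0.21, adjusted p = 0.0097). Cnr2, the cannabinoid receptor of immune cells, had 3.45, 8.35 and 10.6 TPM at week 4 and 22.4, 20.3 and 20.8 TPM at week 3 (log2 fold change -1.50, SE 0.30, adjusted p = 0.0374). Further falls were those of Xlr3b (log2 fold change -1.47), LOC102639543 (-1.51) and Gbp10 (-1.45), the last already counted with the guanylate-binding proteins. Mir7663 was listed at 0 in all 3 libraries of week 4 and at 30.3, 4.92 and 28.3 TPM at week 3, from 16, 4 and 24 reads, so that its adjusted p of 0.0123 rests on few reads and no fold is given. Slfn1 and LOC102639543 passed in all 9 fits without 1 library. Treml2 lost its call without week 3 replicate 3 (0.0523), Xlr3b and Gbp10 without week 3 replicate 3 or 4 (up to 0.0694 and 0.0725), and Mir7663 without week 4 replicate 3 or week 3 replicate 4 (up to 0.051). Txnip lost it without week 4 replicate 2 or 3 or any week 3 library (up to 0.106), and Cnr2 without week 4 replicate 3, any week 3 library or week 2 replicate 1 or 2 (up to 0.129).

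Genes that passed with the carry-over mark included Creb3l2, a membrane-bound transcription factor, with 21.4, 19.04 and 26.7 TPM at week 4 and 7.08, 10.4 and 4.86 TPM at week 3 (log2 fold change 1.51). Sema4c, a semaphorin, had 42.8, 54.6 and 44.02 TPM at week 4 and 17.1, 19.5 and 12.03 TPM at week 3, and LOC108167879 rose with a log2 fold change of 1.44. Plscr1, a scramblase of membrane lipids, had 68.5, 65.3 and 67.2 TPM at week 4 and 29.9, 24.1 and 19.2 TPM at week 3 (log2 fold change 1.44). Tumor cells held 113 ± 14.2 TPM of Plscr1 at week 4 and 112 ± 10.5 TPM at week 3 (SD, n = 4 each). Pou2af1, a coactivator best known from B cells, had 3.51, 3.16 and 9.61 TPM at week 4 and 17.7, 38.4 and 24.1 TPM at week 3 (log2 fold change -2.18, SE 0.41, adjusted p = 0.0288). Sema4c lost its call without week 4 replicate 3 (0.0590), Creb3l2 without week 4 replicate 2 or 3 (up to 0.0580), and Pou2af1 without any of week 4 replicates 2 and 3 and week 3 replicates 3 and 4 (up to 0.118). LOC108167879 passed only without week 4 replicate 4 or week 2 replicate 3, and Plscr1 only without week 2 replicate 1 or 3 (up to 0.141 and 0.147 in the others). To set a scale, 16 luminal epithelial genes with a strong mark stood at a median of 4.57%, 2.95% and 3.65% of their tumor level in the week 4 libraries and 6.80%, 9.52% and 5.47% in the week 3 libraries. The strong mark asks for a tumor level at least 3 log2 units above the CD8 level. These shares were thus bounded from above by the choice of genes. The rest of the 26 tested luminal genes were left out, so the values below may understate carry-over. The tumor mean of a gene in each week was multiplied by the mean of that week's shares. The week 4 product less the week 3 product gave at least 50% of the CD8 difference for 4 of the 44 marked genes that fell (F830016B08Rik, Iigp1, Lmcd1 and Steap4, named after their values were seen) and for 0 of the 128 unmarked ones. The median was 15.9% of the CD8 difference for marked and 4.13% for unmarked genes that fell. For the 184 genes that rose no such difference of products reached 50%, and its median ran against the rise.

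Lists of cell growth and metabolism had no member past the threshold. This held with limma for 44 cell cycle genes (7 higher and 1 lower at an unadjusted p under 0.05, and 1 lower with voom on recovered reads). It also held for 21 glycolysis genes (3 and 2 at an unadjusted p under 0.05, 1 lower with voom) and 37 oxidative phosphorylation genes (9 and 0, none with voom). Mki67, which marks cells in cycle, was at 154, 72.97 and 77.3 TPM at week 4 and 73.6, 68.6 and 45.3 TPM at week 3 with week 4 replicate 2 the highest (log2 fold change 0.63, SE 0.29, adjusted p = 0.21). Of 47 cytosolic ribosomal protein genes, 25 fatty acid uptake and oxidation genes and 33 fatty acid and sterol synthesis genes, 0 passed with limma or voom; 0, 5 and 3 were higher and 1, 2 and 1 lower at an unadjusted p under 0.05. Heat shock chaperones (18 genes) and the unfolded protein response (19) had 0 past the threshold with limma, 0 and 7 higher and 0 and 1 lower at an unadjusted p under 0.05, and 0 and 1 past it with voom. Bcl2 was the one call among 17 listed genes of its family, and Bhlhe40 the one among 19 hypoxia genes. In MHC class I presentation 1 of 15 genes fell, Tapbpl, a peptide editor, with 44.7, 52.2 and 47.3 TPM at week 4 and 70.3, 78.4 and 74.7 TPM at week 3 (log2 fold change -0.62, SE 0.11, adjusted p = 0.0213). Its call was lost without any of week 4 replicates 2 and 3 and week 3 replicates 3 and 4 (up to 0.113). B2m, the light chain of MHC class I, was at 6929, 6214 and 5801 TPM at week 4 and 5983, 6601 and 6811 TPM at week 3 (log2 fold change -0.04). Among 24 immediate early genes 1 rose, Dusp5, a phosphatase of ERK, with 415, 419 and 466 TPM at week 4 and 284, 245 and 250.4 TPM at week 3 (log2 fold change 0.74, SE 0.10, adjusted p = 0.0101), lost without week 3 replicate 3 (0.0606). Mitochondrially encoded genes took 6.79%, 7.09% and 5.95% of TPM at week 4 and 3.65%, 4.93% and 6.003% at week 3 (exact permutation test, two-sided p = 0.2, where 0.1 is the smallest p that 3 against 3 libraries can give). None of the 13 genes passed with limma (8 were higher at an unadjusted p under 0.05) or with voom.

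Markers of other cell types moved beside these changes. B cell defining genes (Cd79a, Ms4a1 and Pax5) summed to 0.803, 1.65 and 7.29 TPM at week 4 and 5.29, 46.8 and 37.3 TPM at week 3, lower at week 4 except for the overlap of week 4 replicate 4 with week 3 replicate 1. Jchain, the joining chain made by plasma cells, was at 2.47, 0.665 and 0.609 TPM at week 4 and 6.43, 75.2 and 47.5 TPM at week 3 (log2 fold change -3.84, SE 0.88, adjusted p = 0.0565). With the B cell sum as a covariate 11 genes of all tested passed in place of 356. Because this sum itself differs between weeks 4 and 3, the fit cannot fully separate it from week. Calls can then be lost through a larger standard error alone. None of the 11 genes was in the cytokine, killing, exhaustion factor, effector, homing, costimulatory or helper and regulatory T cell lists. Nor did any tested TNF ligand, schlafen or PARP gene pass in that fit. Of the 11 tested genes of the whole B and plasma cell list 0 passed with limma or voom, and 2 were lower at an unadjusted p under 0.05. The covariate fit cannot settle the part of B cell transcripts in the other changes, which was not tested further. The macrophage genes C1qa, C1qb and C1qc summed to 149, 123 and 103 TPM at week 4 and 80.3, 351 and 223 TPM at week 3. The 28 luminal epithelial markers summed to 453, 389.6 and 361 TPM at week 4 and 456, 537 and 347 TPM at week 3 (exact permutation test, two-sided p = 0.6). Endothelial markers summed to 35.9, 49.5 and 77.9 TPM at week 4 and 92.6, 143 and 97.5 TPM at week 3 without overlap. The fibroblast list summed to 1279, 1222 and 833 TPM at week 4 and 842, 1741 and 856 TPM at week 3, of which Thy1, which T cells also express, made up 1157, 1118 and 734 TPM at week 4 and 728, 598 and 546 TPM at week 3. Of 18 fibroblast genes 17 had a log2 fold change below 0, with a median of -1.27, and the 11 tested endothelial genes had a median of -0.62. No endothelial or fibroblast gene passed with limma or voom (0 and 1 were higher and 4 and 2 lower at an unadjusted p under 0.05).

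The list of helper and regulatory T cell markers summed to 609, 668 and 596 TPM at week 4 and 403, 301 and 320.2 TPM at week 3. Ctla4 made up 285, 279 and 315 TPM of these sums at week 4 and 221, 162 and 191 TPM at week 3. Ctla4, Ccr8, Il2ra and Tnfrsf4 were also given above with other lists, so the sum is not specific to helper or regulatory T cells. Of the 11 genes of the list 3 rose (Ccr8, Il2ra and Tnfrsf4), beside 1.38% of all genes. Of the 11, 9 had a log2 fold change above 0, 7 did not overlap in the upward direction (10.4% of all genes), and the median was 0.62. Foxp3, the factor of regulatory T cells, was at 7.24, 6.39 and 3.81 TPM at week 4 and 9.21, 8.48 and 7.05 TPM at week 3, and the values of Cd4, given with the check of the label, overlapped between the weeks. The part of helper or regulatory T cells in the other changes was not tested. Neutrophil markers summed to 70.7, 21.9 and 49.4 TPM at week 4 and 12.7, 16.7 and 21.2 TPM at week 3, with Ly6g and Elane listed at 0 in all 6 libraries. In the neutrophil list and in the luminal, milk, basal, macrophage, dendritic, gamma delta T, mast cell, adipocyte, muscle and erythroid lists, 0 genes passed with limma. Each of these had at most 2 genes in either direction at an unadjusted p under 0.05, and 1 gene of the gamma delta list passed with voom. Mogat1, the acyltransferase the series goes on to study in tumor cells, missed the filter on low values in CD8 T cells, with 65, 12 and 22 reads at week 4 and 4, 10 and 6 reads at week 3.

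**Figure D5:**
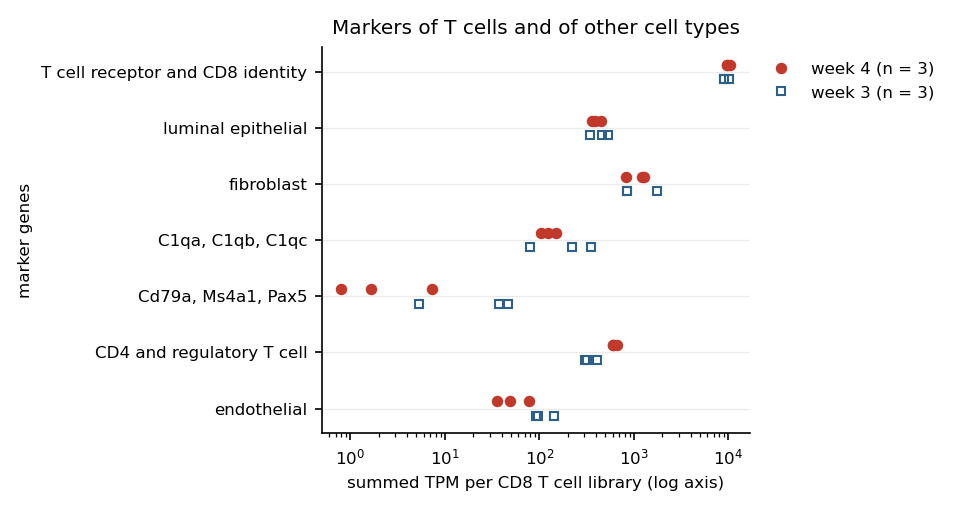
Summed TPM of marker genes in each CD8 T cell library on a log axis, with filled circles for week 4 and open squares for week 3 (n = 3 each). The T cell sums of both weeks overlap, and the B cell genes Cd79a, Ms4a1 and Pax5 differ most between the weeks in their medians, although 1 library of each week overlaps.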

How the data were processed

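RNA was extracted with TRIZOL and libraries were made with a stranded mRNA kit, per the labels' protocols. FastQC, Trim Galore, HISAT2 and mm10 are named in the submitters' processing notes, without roles or versions. The read counter, the annotation and whether strand was used in counting are not given in the sources used here, so reads of overlapping antisense genes may not have been told apart. The authors deposited TPM values, 1 table per cell type with 33681 rows, of which 27 hold a date in place of a gene symbol (at most 0.164% of TPM in a CD8 library). TPM fixes the total of a library, so a few abundant genes can shift all others.

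Genes with at least 1 TPM in at least 3 of the 9 CD8 libraries of weeks 2 to 4 were tested on log2(TPM + 1) with limma 3.58.1 (R 4.3.3; trended empirical Bayes, all 3 weeks in one fit, contrast week 4 minus week 3). P-values were adjusted over all 13350 genes by the Benjamini-Hochberg method. On data simulated with this design, 67% of 2-fold and 95% of 4-fold changes were recovered and 3.57% of calls were false. The simulated noise was normal and independent between genes, and changes were set only in genes with a mean log2(TPM + 1) above 3. Deviations shared by many genes of a library, such as those of cell content, were not simulated. These rates therefore need not hold for the real libraries. Whole reads were recovered from the steps between TPM values for 21211 genes (tolerance 0.05 reads) to describe depth. Other work used Python 3.11.15 with pandas 2.3.3 and scipy 1.17.1, and plots were drawn with matplotlib 3.10.9.

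The comparison, the lists of genes and the rule by which genes are named were chosen with earlier results of these data known. The rule named, among genes past the threshold without overlap, with a mean of at least 5 TPM in the higher week, the 12 largest rises and 12 largest falls of unmarked genes, and the 4 of each of marked genes. It added up to 4 called members per pathway list, 2 genes per marker list and a fixed set of T cell genes, and passed over predicted genes. Other genes were named after their values had been seen as examples of their list. Of 796 list symbols in 41 lists, 775 were matched, and the others (H2, globin, T cell receptor and immunoglobulin genes among them) were not analysed here. Single values of a few listed genes are not reported here. Locations are from GENCODE M21 and promoters from RefSeq, both GRCm38. The alternatives tried were the pseudocount, the filter, 2 rescalings, the samples fitted, library weights, cell content covariates, a replicate block and leaving out each library.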

Additional observations from a re-analysis of the deposited data

How the results depend on the processing

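The count of 356 genes (184 higher and 172 lower) depended on several choices. Every one of the 356 kept its direction wherever it was tested. That follows largely from their having been picked in the same libraries and is no separate support. The count was 234 (97 lower) without a filter on low values, 605 (373 higher) with quantile normalization, 3661 (1148 higher and 2513 lower) with array weights, which let limma down-weight libraries, and 538 (294 higher) with the luminal epithelial sum as a covariate. Median-of-ratios rescaling gave 324 higher genes. Leaving out 1 library at a time gave 46 to 676 genes, 24 to 245 of them higher and 22 to 431 lower. Inhibitory receptors that rose then numbered 1 to 7, interferon genes that fell 14 to 31 and stem-like genes that fell 0 to 13. Outside leave-one-out, the 6 inhibitory receptors became 3 without the filter and 12 with array weights, and the 2 stem-like genes became 19 with array weights and 4 with the epithelial covariate. With a margin of 3 log2 units, 0 of the genes that rose and 2 of those that fell were marked as carry-over. The replicate numbers of weeks 4 and 3 share only 3 and 4, whose libraries deviated from their weeks with correlations of -0.08 and 0.14, so they were not taken as pairs. With the replicate number as a block 3 genes passed (2 higher and 1 lower), with 1 inhibitory receptor, 0 interferon genes and 0 stem-like genes. Both fits chosen after the data were seen moved the counts. Voom on recovered reads gave 612 genes (351 higher and 261 lower). The B cell covariate gave 11 (4 higher and 7 lower), with 0 inhibitory receptors, 4 interferon genes and 0 stem-like genes, while their median log2 fold changes were 0.78, -1.07 and -0.75 (1.07, -1.07 and -0.89 without it). Where no cause is plain from the alternative, the cause was not tested. Over the 98 named genes that were tested, 53 of them past the threshold, 2146 alternative values were computed: 1781 kept direction and side of the threshold, 290 lost a call, 46 gained one and 29 changed sign. None of the sign changes was in a gene with a call. They fell on 10 genes without one, at log2 fold changes that were mostly near 0. Without 1 library the values ran from -0.90 to 0.0658 for Lyz2, -0.11 to 0.45 for Maf, -0.18 to 0.0024 for Cd8b1, -0.91 to 0.17 for Cd4, -0.26 to 0.14 for Epcam and -0.34 to 0.12 for Havcr2. The B cell covariate gave 1.24 for Lyz2, 0.80 for Cd74, 0.67 for Cd4, 0.26 for Havcr2, 0.10 for Epcam and 0.0203 for Sdc1. Cd8b1 was at 0.0322 with median-of-ratios rescaling and 0.0145 with voom. Epcam and Havcr2 were at 0.0625 and 0.0584 with that rescaling, 0.0630 and 0.0712 with quantile normalization, 0.13 and 0.12 with the epithelial covariate, and 0.0467 and 0.0102 with voom. Lyz2 was at 0.0188 with the epithelial covariate, Lcn2 at -0.0690 with the replicate block and -0.0123 with array weights, and Krt17 at -0.10 with array weights.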
